A study of Mus musculus with 15 samples.

Results

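The 32 genes described here encode parts of the nuclear envelope that the oocyte takes apart when it resumes meiosis: 27 nucleoporins, the proteins of the nuclear pore, and 5 genes of the lamina and its inner membrane partners. They were taken by gene symbol from a named list, out of 28785 gene identifiers. The data are exon counts from 15 single mouse oocytes, 9 at the germinal vesicle stage (GV1 to GV9) and 6 at the second meiotic metaphase (MII1 to MII6). The GV oocytes were fully grown and came from females of about 6 to 8 weeks, primed with 7 IU of PMSG (pregnant mare serum gonadotropin) and killed 44 h later. The MII oocytes came from females of the same age, about 6 to 8 weeks, that had the same hormone at the same dose. These mice were also given 7 IU of human chorionic gonadotropin about 48 h later, and the oocytes were recovered from the oviducts after another 20 h, with the cumulus cells digested away in hyaluronidase at 300 IU/mL. Both groups thus carry the first hormone, and the MII group carries the second hormone and the enzyme as well. The labels name no strain, genotype or mouse.

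A GV oocyte holds an intact nucleus, the germinal vesicle, and an MII oocyte has none. The nuclear pore is built of rings of nucleoporins around a channel lined by repeat-rich proteins, with filaments on the cytoplasmic side and a basket on the nuclear side. The lamina is a mesh of lamin filaments under the inner membrane, and barrier-to-autointegration factor ties it to chromatin. At germinal vesicle breakdown, phosphorylation takes the pores and the lamina apart, and after fertilization both are rebuilt around the pronuclei. A fully grown oocyte is close to silent in transcription, so its mRNA between these stages is largely what it had stored.

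MATQ-seq, the library method, primes cDNA of 1 cell along whole transcripts and not at the poly(A) tail alone. Total counts were 3687610 to 7103063 in the GV oocytes and 808641 to 2348281 in the MII oocytes. An Ensembl gene without a symbol in the reference held 15.7% to 61.2% of the MII counts, with the highest shares in MII5 and MII6, 3.43% to 11.2% of the counts in GV7 to GV9, and 0% in GV1 to GV6. It was left out of the totals behind every CPM value (counts scaled to the library total), so that MII totals were 536101 to 1277878. MII5 also had the fewest genes with a count, 9616. The files of GV1 to GV6, of GV7 to GV9 and of the MII oocytes have 3 kinds of header, so the stage and the kind of file cannot be told apart. All 12 oocyte markers were detected at both stages. Summed cumulus and granulosa markers reached 101 to 338 CPM in the GV and 37.1 to 127 CPM in the MII oocytes. Of these 15 markers, 7 had no count in the MII oocytes, Amh, Foxl2 and Inha included. At the lower MII depth such zeros say little for Ptx3 and Star, with 2 and 20 counts in GV. Cyp19a1 and Nr5a2 remained in MII, over the summed oocytes at 25.3 CPM (GV 17.4) and 50.7 CPM (GV 85.5). The separate sums of theca and stroma, blood and oviduct markers each reached at most 51.2 CPM in any oocyte. That highest value was the theca and stroma sum of MII5, all of it Col1a1. MII5 also had the highest blood sum, 24.3 CPM, all of it Cd68. Of the 8 blood and immune markers, 6 had no count in the MII oocytes. The part of such cells in the results was not tested. With no mouse named, each stage was treated as 1 sample of several cells, so values carry their range over oocytes, their spread and counting intervals, and no test was made between stages.

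All 32 genes were measured, that is, reached 5 CPM in at least 1 stage, and 29 had counts in all 15 oocytes. The stages were compared by the log2 ratio of the summed MII to the summed GV level, relative to the median of the 10410 measured genes. Read this way, the median ratio of the 32 genes was -0.03, with 15 above and 17 below the median gene. At least 2-fold lower in MII were 3 genes, Nup133, Ranbp2 and Lmnb2, where 15.8% of all measured genes were. At least 2-fold higher were also 3, Nup62, Lmna and Banf1, where 12.9% of all measured genes were. The other 26 stayed within 2-fold of the median gene, so members past 2-fold were no more frequent than among all measured genes. These counts depend on the scaling. Of the measured genes past 2-fold, 54.9% were lower in MII when centred on the median gene, 73.3% when not centred (median gene at -0.29), 66.2% under median-of-ratios scaling and 68.8% under TMM. Not centred, 3 members were lower and 1 was higher, where 2294 and 834 of the 10410 measured genes were. With the unnamed gene also left in the totals, the median gene stood at -0.98 and 96.1% of genes past 2-fold were lower. In that setting 16 members were lower and 1 was higher, where 4957 and 203 of all genes measured in it were. The only members above 0 were then Banf1 at 1.66, Nup62 at 0.32 and Lmna at 0.11. The ratios therefore compare genes with one another, not mRNA per oocyte. Over all 32 genes the summed level was 5940 to 10578 CPM in the GV oocytes (median 7675) and 7592 to 11085 CPM in the MII oocytes (median 9069), and these ranges overlapped.

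The spread given after each ratio combines the SDs over oocytes of the 2 stages, each oocyte's log2(CPM + 1) being taken relative to its own median measured gene (the relative level). Ratios exceeded this spread in 9 of the 32 genes, 28.1%, as against 18.7% of measured genes. The 9 were Nup133, Nup62, Nup88, Ranbp2, Aaas, Nup50, Lmna, Lmnb2 and Banf1. The ranges of relative level did not overlap between stages in 1 gene, Banf1, which was higher in MII, as were 1.62% of measured genes with such ranges. In the opposite direction there was no member, against 0.845% of measured genes. This count depended on which GV oocytes were used and on the centring, since in CPM that was not centred Nup62 and not Banf1 had ranges apart. The gap of Banf1 was narrow, from 4.80 in GV4 to 4.82 in MII3. GV6 lay inside its GV range, at 3.92. Leaving GV6 out changed the set of measured genes, and so each oocyte's median, and the ranges of Banf1 then overlapped. In that setting 1.12% of measured genes had ranges apart with MII lower and 1.77% with MII higher. Without GV3 the ranges of Ranbp2 (lower) and Nup62 (higher) also did not overlap, where 1.0% and 1.79% of measured genes were apart. Without GV2 those of Aaas (lower) also did not, where the shares were 1.05% and 1.76%, and the same 2 genes, Aaas and Banf1, were apart without GV1 and GV2, where the shares were 1.2% and 1.86%. With GV7 to GV9 as the only GV oocytes, 10 genes had ranges apart, 5 lower in MII (Nup133, Ndc1, Ranbp2, Aaas and Nup153), as were 12% of measured genes, and 5 higher (Seh1l, Nup62, Nup50, Lmna and Banf1), as were 8.58%.

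**Figure D1:**
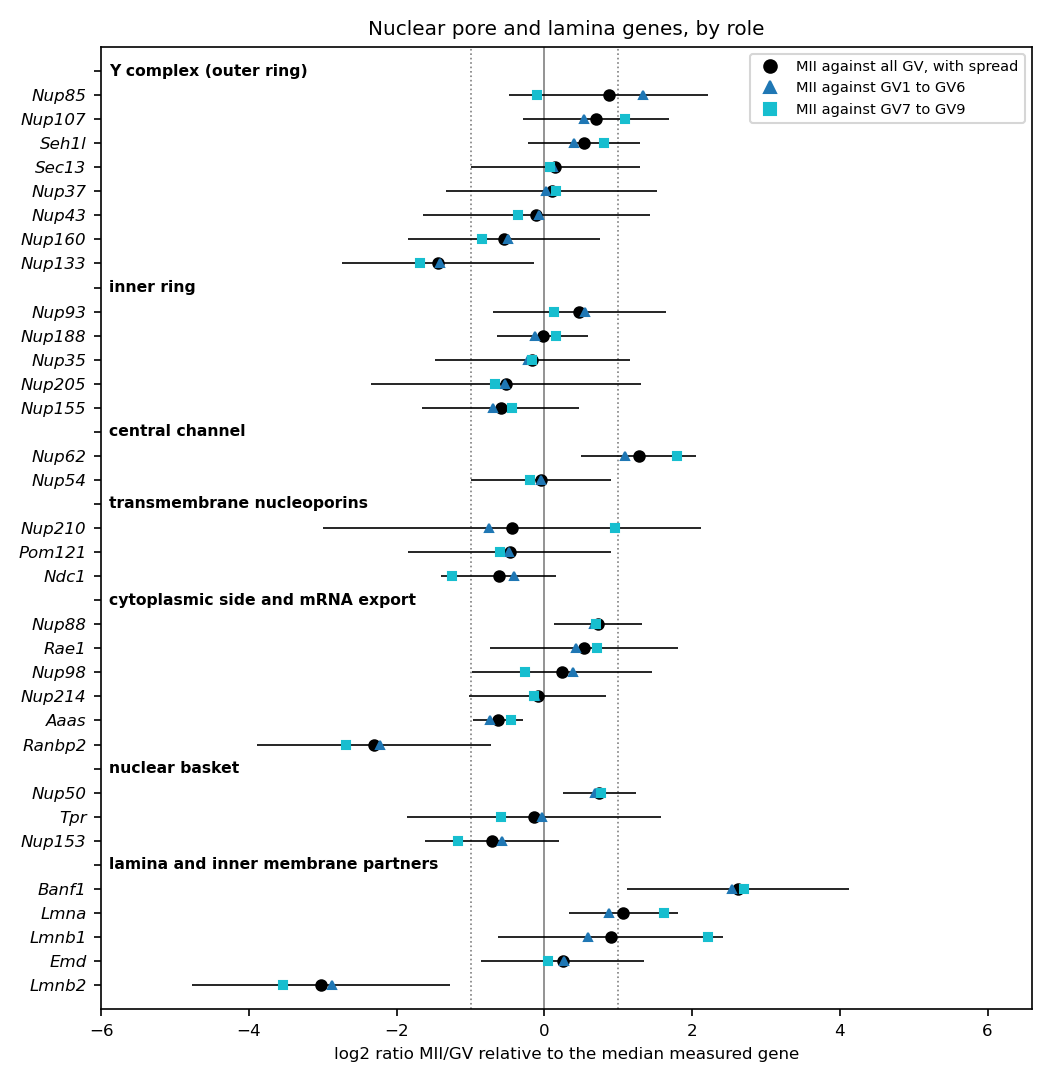
Log2 ratio of MII to GV level relative to the median measured gene (x axis) for each of the 32 genes, grouped by role; bars show the spread over oocytes and triangles and squares the ratio with GV1 to GV6 alone or GV7 to GV9 alone as the reference; dotted lines mark 2-fold. Banf1 lies farthest to the right at 2.62, and Lmnb2, at -3.02, and Ranbp2, at -2.31, lie farthest to the left.

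The mRNA 3′ ends of the genes past 2-fold are shown because stored oocyte mRNAs are regulated there, through the poly(A) signal hexamer and the cytoplasmic polyadenylation element. They are read from GENCODE M21 transcripts (GRCm38), in DNA letters 5′ to 3′. In the next 4, capitals mark the hexamer at the end of each window:
Banf1: gtccttataaaagatttttaaattAATAAA
Nup62: atcaaaatgtttgttgcttttctaAATAAA
Lmnb2: caactggaaacttttgtatactcaAATAAA
Nup133: ccttgcatgcatctgcattgccttAATAAA
In the other two, capitals mark a polyadenylation element:
Nup62: tcatgtctaTTTTATttctctgcactctat
Ranbp2: atatgcaacttaTTTTAATtcctgttaaga
The hexamer began 22 bases before the annotated end in Banf1, Lmnb2 and Nup133 and 26 bases before it in Nup62. The element began 91 bases before the end in Nup62 and 63 bases before it in Ranbp2. In Lmna and Ranbp2 the letters of the hexamer were not found in this window.

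The search covered the last 100 bases on the mRNA strand, for AATAAA or ATTAAA and for TTTTAT or TTTTAAT, and was chosen after the ratios were known. Of the 32 genes, 29 had an annotated 3′ UTR of that length. A hexamer stood in 25 of these, 86.2%, and in 81.2% of the 9007 measured genes with such an end. The polyadenylation element stood in 7, 24.1%, as against 20.4% of measured genes. These were Nup35, Nup37, Nup54, Nup62, Nup98, Rae1 and Ranbp2, which include 1 of the genes higher in MII and 1 of those lower. They are matches of letters only, counted wherever they stood relative to the hexamer. In Nup35 the match began 10 bases before the end, after the hexamer at 26 bases, and Ranbp2 had no hexamer in the window. The median ratio was 0.10 in the 7 and 0.06 in the 22 without the element. Over all measured genes the same medians were -0.05 and 0.01.

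Among the 5 lamina genes, Banf1 and Lmna were higher in MII, Lmnb2 was lower, and Lmnb1 and Emd stayed within 2-fold. Their median ratio was 0.90, and their summed level was 234 to 1006 CPM in the GV oocytes and 808 to 6114 CPM in the MII oocytes. Most of that sum was Banf1, which encodes barrier-to-autointegration factor, a small DNA-binding protein that bridges chromatin and the LEM-domain proteins of the inner membrane. Banf1 stood at 425, 171, 307, 860, 403, 380, 206, 442 and 493 CPM in GV1 to GV9. In MII1 to MII6 it stood at 843, 775, 613, 1855, 5876 and 3540 CPM. GV4 was the highest GV oocyte, above MII2, MII3 and MII1 in CPM, and MII5 and MII6 were the highest of all. Taken relative to each oocyte's median gene the stages separated narrowly, with 2.80 to 4.80 (log2) in the GV and 4.82 to 8.28 in the MII oocytes.

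The ratio of Banf1 was 2.62 ± 1.50 (spread, 9 GV and 6 MII oocytes). The summed counts, 17743 in GV and 12330 in MII, gave a CPM 5.04-fold higher in MII, with an exact 95% interval of 4.92 to 5.15 that covers counting error only. Without MII5 the ratio was 2.13, and without both MII5 and MII6, in which the unnamed gene had its highest shares, it was 1.67. It was 2.54 with GV1 to GV6 as the reference and 2.69 with GV7 to GV9. Banf1 is also the shortest of the 32 genes in exon length, at 1496 bp. In GV4, its highest GV oocyte, and in MII5 and MII6, its highest MII oocytes, levels of the 32 genes went against exon length (Spearman's rho -0.53, -0.58 and -0.57). In MII4, where Banf1 was next highest at 1855 CPM, rho was -0.21. The part of length in the ratio of Banf1 was not tested. Of its annotated exon bases, 28.6% overlap Eif1ad on the opposite strand, and no source says whether the counting used strand. Eif1ad had a median of 41.1 CPM in MII against 53.9 in GV, and its ratio relative to the median gene was -0.05 ± 0.80. The part of this overlap in the counts of Banf1 was not tested.

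Lmna encodes the A-type lamins, which most differentiated cells carry. It stood at 129, 45.3, 90.9, 116, 188, 163, 69.6, 76.2 and 69.6 CPM in GV1 to GV9. The MII1 to MII6 values were 160, 149, 161, 190, 191 and 299 CPM. GV5 and GV6 lay within the MII range, and the other GV oocytes lay below it. The ratio was 1.07 ± 0.73, and it passed 2-fold in 19 of 30 alternative settings, with 0.97 without GV2 and 0.92 without MII6. It was 0.88 with GV1 to GV6 as the reference and 1.62 with GV7 to GV9.

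The B-type lamins, which are farnesylated and stay with membrane when the lamina disassembles, stood on opposite sides of the median gene. Lmnb1 was at 3.66 to 33.5 CPM in GV (median 8.53) and at 2.56 to 36.9 CPM in MII (median 20.0), with a ratio of 0.90 ± 1.52. MII5 gave the lowest value of Lmnb1, and the other 5 MII oocytes were at or above 19.0 CPM. With GV7 to GV9 as the reference, at 4.08, 8.53 and 3.66 CPM, its ratio was 2.21, and with GV1 to GV6 it was 0.59.

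Lmnb2 was the least abundant of the 32 genes at both stages per length of exon. It had 323 counts over the GV oocytes, of which 120 were in GV3, 98 in GV8 and 53 in GV5, and 4 counts over the MII oocytes, 2 each in MII3 and MII5. Its CPM was 11.1-fold lower in MII, with an exact 95% interval of 4.31 to 41.1. The ratio was -3.02 ± 1.75, and -3.69 without MII5. With the median of CPM or with thinned counts it did not reach 5 CPM and was not counted as measured. GV1, GV2, GV7 and GV9 stood at 0.83 to 2.04 CPM, so the ranges overlapped and the difference lay mostly in 3 GV oocytes. A count of 0 still allows 5.60 CPM in MII1 and 2.35 CPM in MII2, the level of 3 counts there, so at this depth no difference from the lower GV oocytes was detectable.

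Emd encodes emerin, a LEM-domain protein of the inner membrane that binds both lamin and barrier-to-autointegration factor. It stood at 6.33 to 31.5 CPM in GV (median 23.8) and 9.39 to 45.0 CPM in MII (median 21.6), with a ratio of 0.25 ± 1.11. MII5 and MII6 were its highest oocytes, and without them the ratio was -0.41.

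**Figure D2:**
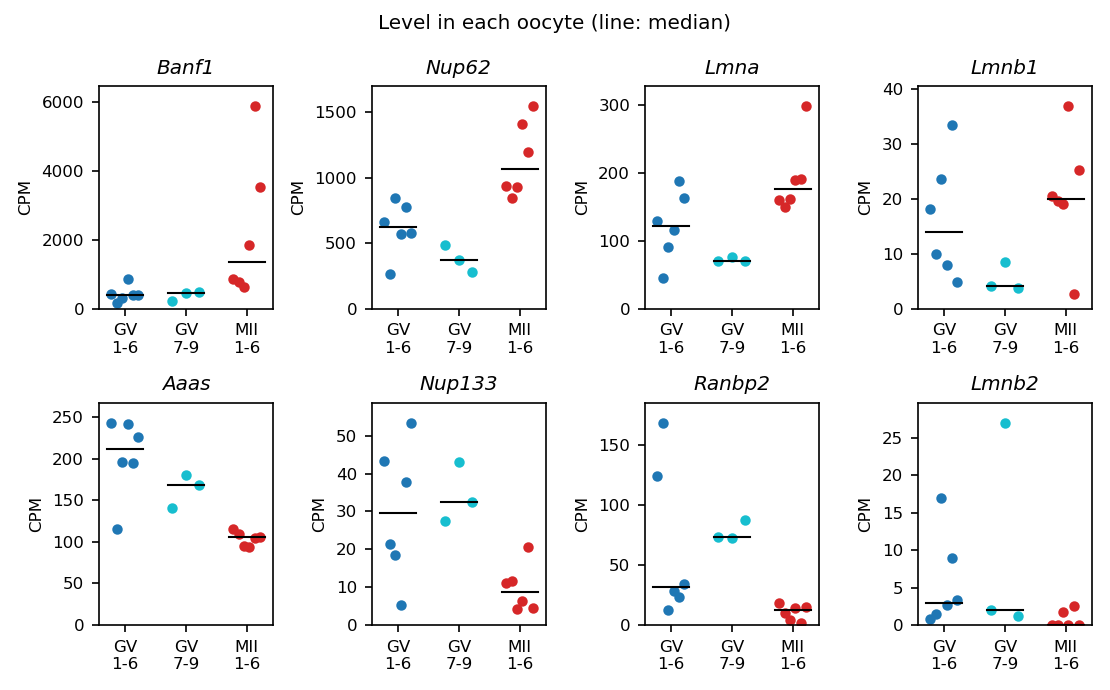
CPM of 8 genes in each oocyte (points), on linear axes from 0, for GV1 to GV6, GV7 to GV9 and the MII oocytes; lines mark medians. Every MII oocyte lies at or above 613 CPM for Banf1, while Ranbp2 lies at or below 18.7 CPM in all MII oocytes and between 12.2 and 168 CPM in the GV oocytes.

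The Y complex, the scaffold of the outer rings on both faces of the pore, had a median ratio of 0.12 over its 8 genes, with 1 gene at least 2-fold lower and none at least 2-fold higher. Nup133, at the tip of the stem of the Y, was that gene. It stood at 43.3, 21.3, 18.6, 5.31, 37.7, 53.4, 27.6, 42.9 and 32.4 CPM in GV1 to GV9. The MII1 to MII6 values were 11.2, 11.7, 4.32, 6.28, 20.5 and 4.39 CPM. GV3 and GV4 lay within the MII range, and the other 7 GV oocytes lay above it. The ratio was -1.45 ± 1.30, from 1311 GV and 54 MII counts. Nup85, a member of the short arm, had the highest ratio of the group, 0.87 ± 1.35. It was 15.6 to 48.5 CPM in GV1 to GV6, 54.8, 125 and 55.9 CPM in GV7 to GV9, and 16.6 to 112 CPM in MII. The ratio was thus 1.33 against the former and -0.10 against the latter.

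Nup107, the stem partner that binds Nup133 directly, differed the other way. It stood at 34.4 to 86.8 CPM in GV and 20.5 to 123 CPM in MII, a ratio of 0.70 ± 0.99. Nup160, the long arm, had a ratio of -0.55 ± 1.30, with its lowest value, 8.97 CPM, in MII5. Sec13, shared with the vesicle coat COPII, was the most abundant of the group per exon length in GV, at 61.0 TPM (counts per exon length, scaled to the library), and had a ratio of 0.15 ± 1.14. Nup107 was the most abundant in MII, at 74.8 TPM. Both rankings use the joined exon length. With each gene's median transcript length instead, the highest were Nup160 in GV, at 162 TPM, and Nup85 in MII, at 119 TPM. Seh1l had a ratio of 0.53 ± 0.75, and Nup43 and Nup37 lay close to the median gene at -0.11 ± 1.53 and 0.10 ± 1.43. Within this one assembly, TPM over joined exons spanned 4.26-fold in GV and 15.9-fold in MII, the latter between Nup107 and Nup133.

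The inner ring, which lines the membrane at the waist of the pore, had no gene past 2-fold among 5, and a median ratio of -0.16. Nup188 was the most abundant per length, at 174 TPM in GV and 139 in MII. It stood at 160 to 434 CPM in GV and 199 to 346 CPM in MII, so the MII range lay inside the GV range, and its ratio was -0.02 ± 0.62. Nup205, a related large scaffold protein, stood at 16.7 to 48.5 CPM in GV and 0 to 29.8 CPM in MII, with a ratio of -0.52 ± 1.83. The 0 was in MII5, where 3 counts are 3.84 CPM. Nup93, which holds the ring together, had the highest ratio of the group, 0.47 ± 1.18, and Nup155 the lowest, -0.59 ± 1.06. Nup35, the smallest member and one that touches the membrane, had -0.16 ± 1.33.

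Of the central channel genes, Nup62 was higher in MII and Nup54 was not. Both encode FG-repeat proteins that form one coiled-coil bundle and make the permeability barrier. Nup62 stood at 663, 263, 841, 568, 772, 579, 482, 369 and 280 CPM in GV1 to GV9. The MII1 to MII6 values were 938, 842, 928, 1412, 1194 and 1545 CPM. All MII oocytes thus lay above all GV oocytes in CPM, by a very small margin between GV3 and MII2, while the ranges of relative level overlapped slightly (highest GV 5.27, lowest MII 5.22). The ratio was 1.28 ± 0.78, 1.09 with GV1 to GV6 as the reference and 1.79 with GV7 to GV9, and 1.16 without MII5 and MII6. Nup54 stood at 17.6 to 65.6 CPM in GV and 8.97 to 53.5 CPM in MII, a ratio of -0.05 ± 0.95. In TPM over joined exons, Nup62 stood at 743 in GV and 1459 in MII, and its partner Nup54 at 41.9 and 32.8. The distance between the partners depends on the length used. With the median transcript length, Nup62 stood at 296 and 576 TPM and Nup54 at 93.4 and 72.5.

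The 3 transmembrane nucleoporins, which anchor the pore in the envelope, were below the median gene when all oocytes were used, with a median ratio of -0.47 and none past 2-fold. Pom121 stood at 671, 2426, 1899, 278, 913, 965, 2067, 937 and 692 CPM in GV1 to GV9 and at 433, 766, 1011, 858, 679 and 304 CPM in MII1 to MII6. Its GV values varied widely, with GV2, GV3 and GV7 above every MII oocyte and GV4 below every one. Its ratio was -0.47 ± 1.38. Of the exon bases of Pom121, 11.9% overlap Nsun5 in the annotation used. Ndc1, needed for pore insertion, had a ratio of -0.62 ± 0.78, which was -0.41 with GV1 to GV6 as the reference and -1.25 with GV7 to GV9. Nup210 stood at 5.23 to 73.4 CPM in GV, with GV4 the highest, and at 0 to 25.9 CPM in MII, where MII5 and MII6 had no count. Its ratio, -0.44 ± 2.56, was 0.06 without those 2 MII oocytes. Its direction turned with the GV file set, at -0.75 for GV1 to GV6 and 0.96 for GV7 to GV9.

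On the cytoplasmic face and among mRNA export factors, Ranbp2 was lower in MII and the 5 other genes were within 2-fold. The group's median ratio was 0.07. Ranbp2 encodes the large filament protein that binds Ran and acts as a SUMO ligase. It stood at 124, 168, 12.2, 28.1, 23.2, 34.4, 73.2, 72.1 and 87.6 CPM in GV1 to GV9. The MII1 to MII6 values were 18.7, 10.2, 4.32, 14.1, 1.28 and 15.4 CPM. GV3 alone lay within the MII range, and among the GV oocytes GV3 to GV6 stood at 12.2 to 34.4 CPM and the others at 72.1 to 168 CPM. The CPM was 6.08-fold lower in MII (exact 95% interval 4.72 to 7.97, 2689 and 61 counts), and the ratio was -2.31 ± 1.59. It was -1.73 without GV1 and GV2. The 12 annotated Ranbp2 pseudogenes together held 1 count.

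Aaas, which encodes ALADIN, had the smallest spread of the 32 genes. It stood at 243, 115, 196, 242, 195, 227, 141, 181 and 169 CPM in GV1 to GV9 and at 116, 110, 95.0, 93.3, 105 and 106 CPM in MII1 to MII6. GV2 was the only GV oocyte inside the MII range. Its ratio, -0.63 ± 0.34, was within 2-fold but larger than its spread. Nup88, the partner of Nup214 on the export platform, stood at 61.7 to 172 CPM in GV and 78.4 to 228 CPM in MII, with a ratio of 0.72 ± 0.60.

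Nup214 was the most abundant of the 32 genes in GV, with 38.2% of their counts, and it stood at 1735 to 4806 CPM there (median 2717). In MII it stood at 1242 to 3569 CPM (median 2191) with 26.9% of the counts, and its ratio was -0.09 ± 0.93. Nup98, an FG-repeat protein that also works inside the nucleus, stood at 345 to 1351 CPM in GV and 251 to 1242 CPM in MII, with a ratio of 0.24 ± 1.22 that was -0.26 with GV7 to GV9 as the reference. Its 3 highest MII values, 1242, 1165 and 1093 CPM, were in MII1 to MII3, and its lowest were 307 and 251 CPM in MII5 and MII6. Rae1, an mRNA export factor that binds Nup98, was highest in MII in just those oocytes, 138 and 142 CPM. Its ratio was 0.54 ± 1.27 and was 0.08 without them.

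The nuclear basket held 2 genes below and 1 above the median gene, none past 2-fold, with a median ratio of -0.14. Nup153, which tethers the basket to the lamina, stood at 91.2 to 272 CPM in GV (median 193) and 39.7 to 129 CPM in MII (median 87.2). Only GV4 was below the highest MII oocyte. The ratio was -0.71 ± 0.91, and it was -0.58 with GV1 to GV6 as the reference and -1.17 with GV7 to GV9. Nup50, a mobile basket protein that assists importin recycling, differed the other way, at 227 to 325 CPM in GV and 246 to 489 CPM in MII. Its ratio of 0.75 ± 0.49 exceeded its spread. Tpr, the coiled-coil filament of the basket, had a ratio of -0.14 ± 1.71, with 81.0 to 312 CPM in GV, 61.5 to 201 CPM in the MII oocytes other than MII5, and 7.68 CPM in MII5.

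Compared as TPM, which divides by annotated exon length before scaling to the library, the 32 genes had much the same order in both stages (Spearman's rho 0.94 across the 32 genes, which share the libraries and are no replicates, and 0.89 across all measured genes). In GV the highest were Nup214 at 1213, Banf1 at 1015, Pom121 at 803 and Nup62 at 743 TPM. In MII they were Banf1 at 5053, Nup62 at 1459, Nup214 at 922 and Pom121 at 471 TPM. Banf1 and Nup62 thus stood below Nup214 in GV and above it in MII with joined exons. With the median transcript length Nup214 stayed above both in MII, at 4461 TPM against 3363 for Banf1 and 576 for Nup62. In GV, 24 of the 32 stood above the median measured gene in TPM, and in MII 25 did. The lowest at both stages was Lmnb2, at 6.45 TPM in GV and 0.57 in MII. From Nup214 to Lmnb2, TPM spanned 188-fold in GV. Within the inner ring it spanned 14.8-fold and within the basket 3.64-fold. With that other length, 3 of the 5 highest were shared in each stage, so the order at the top depends on the length used.

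**Figure D3:**
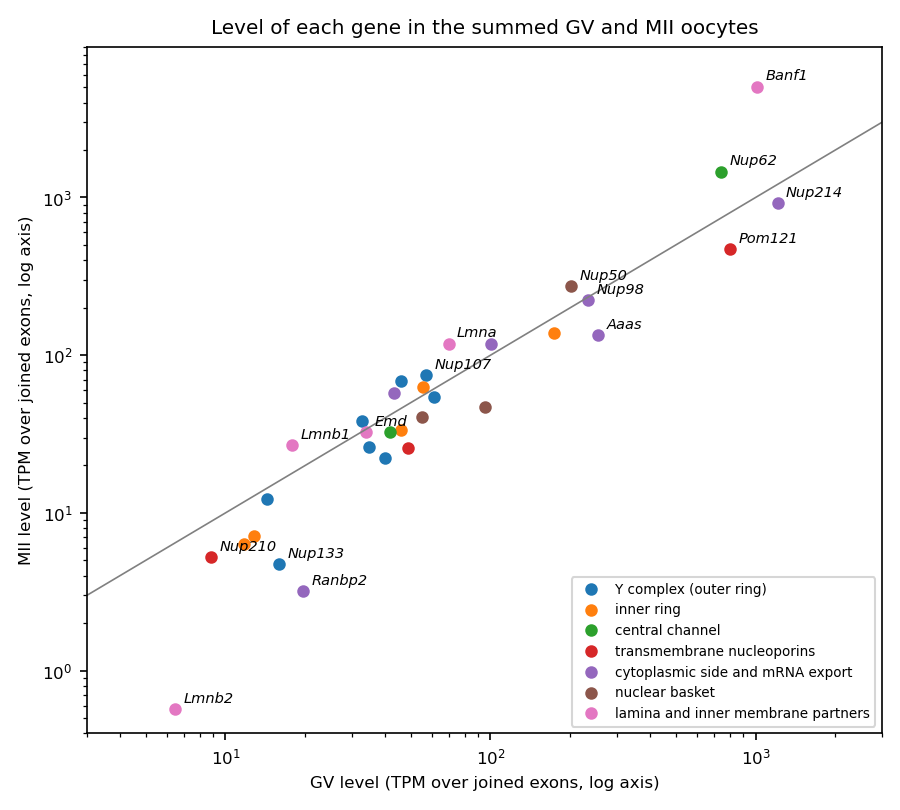
TPM over joined exons in the summed GV (x axis) and MII (y axis) oocytes, both on log axes, for the 32 genes coloured by role; the line marks equal TPM. Banf1, at 1015 and 5053, lies farthest above the line among the abundant genes, and Lmnb2, at 6.45 and 0.57, lies lowest.

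The median SD of relative level over GV oocytes was 0.62 for the 32 genes and 0.84 for all measured genes, and over MII oocytes 0.96 and 0.97. The median of the 32 genes in an oocyte stood 0.64 to 1.54 (log2) above its median gene in GV and 0.77 to 1.69 above it in MII, so the group as a whole did not separate the stages. MII5 gave the lowest MII value for Nup205, Nup155, Nup160, Nup35, Nup93 and Tpr, among others, and the highest for Banf1.

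In MII5 and MII6 the level relative to the GV mean went with exon length among the 32 genes (Spearman's rho -0.58 and -0.57), and also over all measured genes (-0.30 and -0.31). In GV4 the values were -0.53 and -0.37. In GV2 they were 0.56 and 0.24, and in GV7 they were 0.57 and 0.15. In MII1 to MII4 the members' values were -0.27 to -0.11. The 16 shorter genes (1496 to 4286 bp) had a median ratio of 0.36 and the 16 longer (4894 to 12602 bp) one of -0.45. Measured genes of the same lengths had medians of 0.06 and -0.04. Across genes, which are not independent replicates, the ratio and length had a rho of -0.45 for the 32 and -0.10 for all measured genes. This comparison by length was added after the values were seen, and its part in the ratios was not tested.

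**Figure D4:**
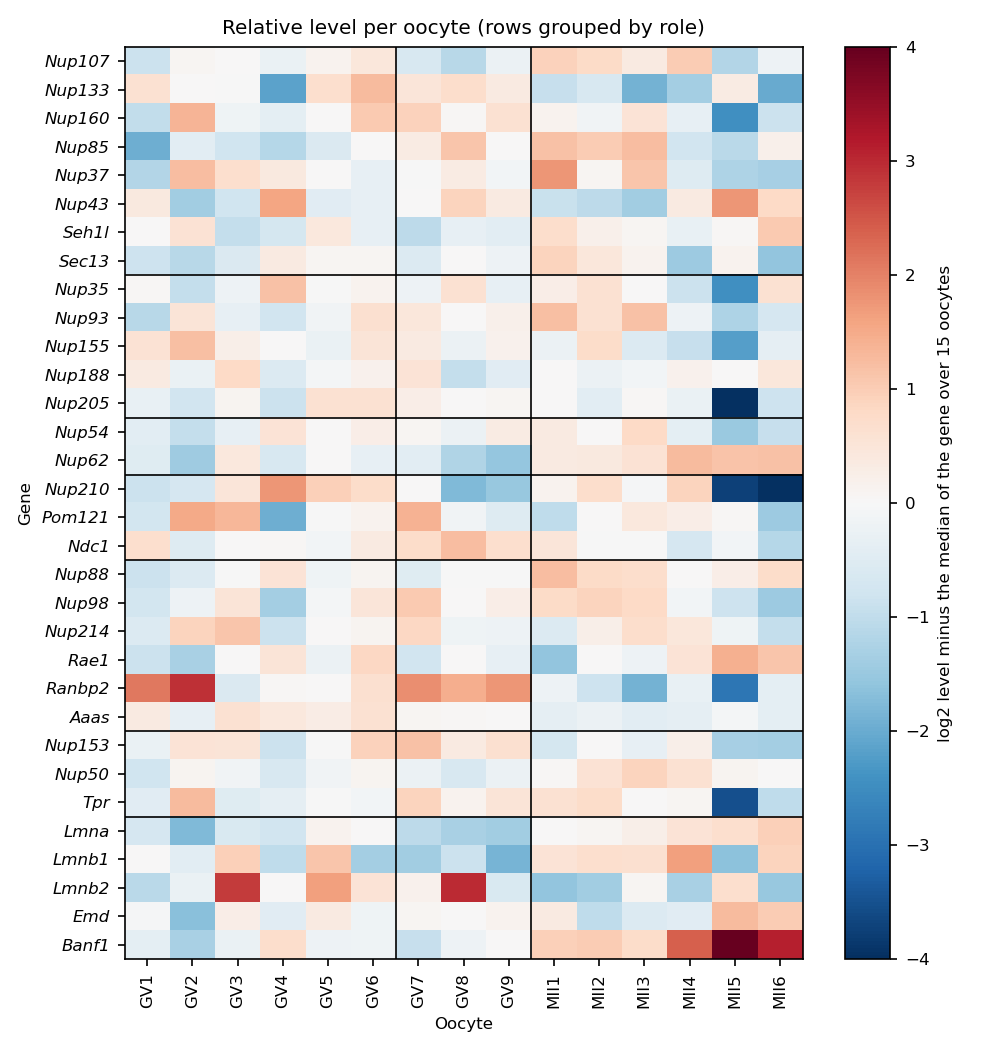
Relative level of each of the 32 genes (rows, by role) in each oocyte (columns), as log2(CPM + 1) relative to the oocyte's median gene and minus the gene's median over the 15 oocytes, with red for higher and blue for lower. Banf1 is high in MII5 and MII6, Ranbp2 and Nup133 are low in most MII oocytes, and Nup205 is low in MII5.

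Between the file sets of the GV oocytes, the 32 genes had a median ratio of 0.06 for GV7 to GV9 over GV1 to GV6. Lmnb1 (-1.59) and Nup210 (-1.68) were at least 2-fold lower in GV7 to GV9, as were 20.2% of measured genes, and Nup85 (1.46) was at least 2-fold higher, as were 18.1%. Against GV1 to GV6 alone, 3 genes were lower and 3 higher in MII (16.6% and 13.3% of measured genes). Against GV7 to GV9 alone, 5 were lower and 5 higher (21.1% and 21.5%). Both comparisons use the same MII oocytes. In each of them Nup133, Ranbp2 and Lmnb2 were at least 2-fold lower in MII, and Nup62 and Banf1 at least 2-fold higher.

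The rest of the pathway was read from 5 lists holding 77 genes, of which 67 were measured. Their median ratio was -0.03, with 3 at least 2-fold lower and 5 higher, where 15.8% and 12.9% of all measured genes were. The other nucleoporins and pore-associated factors had a median of 0.44 over 9 measured genes. Gle1, which activates the export helicase, was highest at 1.01 ± 0.67, Ahctf1, which seeds pores on chromatin, lowest at -0.36 ± 1.45, and the helicase Ddx19a most abundant, with a ratio of 0.44 ± 0.55. The transport receptors and the Ran system, which carry cargo through the pore, had a median of -0.03 over 29, with 2 lower and 1 higher. The importin Ipo7 was lowest at -1.79 ± 1.60. Nutf2, the carrier that brings Ran into the nucleus, was highest at 1.69 ± 1.48. Kpna7, the oocyte's own importin alpha, was the most abundant, at 363 to 1250 CPM in GV and 394 to 1263 CPM in MII, with a ratio of -0.06 ± 0.91.

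The other lamina and inner membrane genes had a median of 0.51 over 12, with 1 lower and 1 higher. Syne1 and Syne2 encode nesprins, which link the nucleus to the cytoskeleton. Syne1 was lowest at -1.33 ± 2.05, and Syne2, the most abundant, had 0.50 ± 1.83. The membrane protein gene Nemp1 was highest at 1.27 ± 1.33. None of 5 lamin processing enzymes passed 2-fold (median -0.05). The methyltransferase Icmt was highest and most abundant at 0.97 ± 0.81, and the farnesyltransferase subunit Fntb was lowest at -0.45 ± 1.70.

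Of 12 measured factors of envelope disassembly and resealing, none was 2-fold lower and 2 were higher (median -0.23). Vrk1, a kinase that phosphorylates the product of Banf1 and releases it from DNA, was the highest. It stood at 11.0 to 33.9 CPM in GV (median 17.3) and 32.1 to 123 CPM in MII (median 42.1), and its ratio was 1.91 ± 0.87. Its ratio was 1.80 with GV1 to GV6 as the reference and 2.10 with GV7 to GV9. Its ranges of relative level did not overlap, and it was the only one of the 67 with such ranges, which 1.62% of all measured genes had in that direction. Chmp4b, an ESCRT-III subunit that reseals the envelope, was lowest at -0.83 ± 2.06, and Lpin2, a lipid phosphatase, was the most abundant, with -0.33 ± 1.38.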

How the data were processed

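Single oocytes were lysed in droplets, and cDNA was amplified by 28 PCR cycles and sheared to 300 bp, per the labels' protocols. The deposited values are counts of reads over exons per Ensembl gene, with no normalization by the authors. Per the submitters' processing notes, GRCm39, STAR 2.7.10a and cutadapt 4.0 were used. No source used here gives the counting tool, its strand setting, the annotation or molecular identifiers, and PCR reads are not independent molecules, so all intervals cover counting error only.

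Within each stage, counts were added up across oocytes and expressed as CPM over totals without 1 unnamed Ensembl gene. To each sum 0.5 counts were added, the log2 ratio of MII to GV was taken, and the median of all genes reaching 5 CPM in either stage was subtracted. TPM used the joined exon length. Relative levels used log2(CPM + 1). A difference was counted at 2-fold. No pair of oocytes of a stage agreed within sampling noise (51 pairs, genes with at least 10 counts in the pair, lowest chi-square per degree of freedom 7.26). Total counts ranged from 808641 to 7103063 per oocyte. Each of the 32 genes had at least 100 counts over the GV oocytes and 27 had as many over the MII oocytes. Intervals are exact 95% Poisson or conditional binomial intervals. No stage was tested against the other, since no label separates the mice. edgeR 4.0.16 (TMM) and DESeq2 1.42.0 (median-of-ratios) gave alternative scalings only. Symbols, exon lengths, overlaps and 3′ ends came from GENCODE M21, whose build (GRCm38) differs from that of the files, so no coordinates are given. It named 98.8% of the identifiers. Python 3.11.15, scipy 1.17.1 and R 4.3.3 were used, and the ratio was tested on simulated counts.

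The members and lists were chosen with earlier results of these data known. Genes named are those at least 2-fold from the median gene or with ranges that do not overlap, the most abundant per exon length and the lowest and highest ratio of each role group, all lamina genes, and the extremes and most abundant gene of each other list. The remaining members were named to account for all of them. Alternatives changed the scaling, the filter on low values, the count added, the way oocytes are combined, the depth (thinned to 536101 counts), the GV file set and the oocytes left out.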

Additional observations from a re-analysis of the deposited data

Results flagged for a closer look

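In 4 of the 66 groups of oocytes examined, 1 oocyte lay far from the others of its stage, which chance gives in about 1 of 20 groups. Nup133 stood at -2.29 (log2, relative to the oocyte's median gene) in GV4, against a GV median of 0.33. Emd stood at -1.75 in GV2, against a GV median of -0.08. In MII5, which had the fewest genes with a count, Nup205 stood at -4.24 with a count of 0 (MII median -0.08) and Lmnb1 at -2.41 (MII median -0.11).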

How the results depend on the processing

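The median ratio of the 32 genes was -0.99 with CPM of all counts, not centred. That setting also gave 16 genes at least 2-fold lower and 1 higher, where 4957 and 203 of all genes measured in it were. The number higher was 1 with CPM without the unnamed gene, not centred, where 834 of 10410 measured genes were higher. It was 5 with the median of CPM over oocytes. Against GV7 to GV9 alone 5 genes were lower and 5 higher, where 21.1% and 21.5% of measured genes were. In that setting the ranges of 10 genes did not overlap, where those of 12% of measured genes did not with MII lower and of 8.58% with MII higher. Without GV1 and GV2 the ranges of 2 genes, Aaas and Banf1, did not overlap. Leaving out each oocyte in turn gave medians of -0.06 to 0.10, 3 to 4 genes lower, 2 to 5 higher (5 without MII5, with Nup85 and Lmnb1 added) and 0 to 3 with ranges that did not overlap (0 without GV6, 3 without GV3). Shares of all measured genes past 2-fold were not computed for the settings that combine, thin or filter counts or leave 1 oocyte out. Over 30 alternatives Banf1, Ranbp2 and Nup133 stayed past 2-fold in all 30, Nup62 in 28, Lmnb2 in 27 and Lmna in 19. Lmnb2 was too low to count as measured with the median of CPM, with thinned counts and with a filter of 20 CPM, and 2 genes were then lower. Over the 30 alternatives the ratios ranged from 1.66 to 2.86 for Banf1, from -3.26 to -1.73 for Ranbp2 and from -2.40 to -1.26 for Nup133. For Lmna they ranged from 0.11 to 1.62. Lmnb2 ranged from -4.78 with the median of CPM to -2.30 with thinned counts, both settings in which it was not measured. With 1 oocyte left out at a time, Lmnb2 ranged from -3.69 to -2.58. No paired analysis was possible because the result comes from no test and the shared numbers of the labels only name oocytes. The cause of these shifts was not tested. Depth limits the MII values, in which 5 of the 32 genes have under 100 counts.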
